A study of Mus musculus with 4 samples.

Results

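Aminoacyl-tRNA synthetases, the enzymes that load each transfer RNA with its amino acid, were examined for Flag ChIP-seq peaks of tagged Nynrin in mouse lineage-negative bone-marrow cells. The members were all protein-coding genes of the mm10 annotation whose symbol is that of a synthetase (an amino acid letter followed by ars with an optional 1 or 2, together with Farsa, Farsb, Fars2, Eprs, Ears2, Pars2 and Tarsl2). They numbered 38 of 21887 protein-coding genes, 21 of them for the cytosolic enzymes and 17 for the mitochondrial ones. A member was scored in each deposited peak list by whether a peak summit lay no more than 1000 bp from one of its ends, and is termed called where this held for both lists.

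The study used chromatin immunoprecipitation with sequencing to find promoter sites of Nynrin. Lineage-negative cells are marrow cells left after those with surface markers of mature blood lineages have been removed, and they contain the stem and progenitor cells. All 4 libraries came from C57BL/6 mice of the 3xFlag-Nynrin-Tg genotype at 8 weeks of age. In 2 of them the chromatin was precipitated with a Flag antibody (replicates 1 and 2), and the other 2 were input chromatin. The promoter that drives the transgene, the number of mice behind a library and whether the replicates were separate animals are not given in the sources used here. Peak lists of the 2 Flag libraries were analysed, and the inputs were not analysed here. No list from untagged cells was used, so a peak is a place that the authors' peak caller reported for a Flag library.

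The peaks on chromosomes 1 to 19, X and Y numbered 12702 in replicate 1 and 25787 in replicate 2. Neither list gives reads, which leaves the depth behind a peak unknown and allows no interval. With 1 group of 2 libraries there was no contrast to test, and every comparison of gene counts in this account is a description. Of 6 stem and progenitor marker genes, 1 (Runx1) was called, and of 7 genes of mature lineages 1 (Itgam) was called, against 31.9% of all protein-coding genes. In replicate 2 taken alone, 5 of the 6 and 1 of the 7 had a summit, against 45.5% of all genes. A peak is not expression, so these counts do not check the cell label. The Nynrin gene had no summit near its ends in replicate 1 and a weak one in replicate 2 (fold enrichment 3.44).

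Each synthetase recognises an amino acid and its transfer RNAs, and the charged transfer RNA then enters the ribosome. Mitochondria translate with their own set of transfer RNAs, and most amino acids therefore have separate genes for the cytosolic and the mitochondrial enzyme. The glycyl and lysyl enzymes of both compartments come from a single gene each (Gars and Kars), and mitochondrial glutaminyl-tRNA is made by an indirect route without a synthetase of its own. Several cytosolic synthetases sit together in the multisynthetase complex, held by the scaffold proteins of Aimp1, Aimp2 and Eef1e1. When amino acids run short, uncharged transfer RNA activates the kinase of Eif2ak4 (GCN2), and the transcription factor ATF4 that is then made switches on genes of amino acid supply and cytosolic synthetase genes.

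Peaks lay near the ends of most synthetase genes in both libraries. Of the 38 members, 32 (84.2%) were called, against 31.9% of all protein-coding genes. Replicate 1 had a summit at 32 members (84.2%), against 32.6% of all genes, and replicate 2 at 35 (92.1%), against 45.5% of all genes. No member had a summit in replicate 1 alone, 3 had one in replicate 2 alone, and 3 had none in either. Where only stronger peaks counted, the share came closer to the background. When both peaks had to reach a −log10 q of 5, 17 members (44.7%) were called, against 21.1% of all genes. When both had to reach a fold enrichment of 5, 4 members (10.5%) were called, against 9.52% of all genes. This cutoff was stricter in replicate 1, where the median fold enrichment of all peaks was 4.04, against 4.66 in replicate 2.

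**Figure D1:**
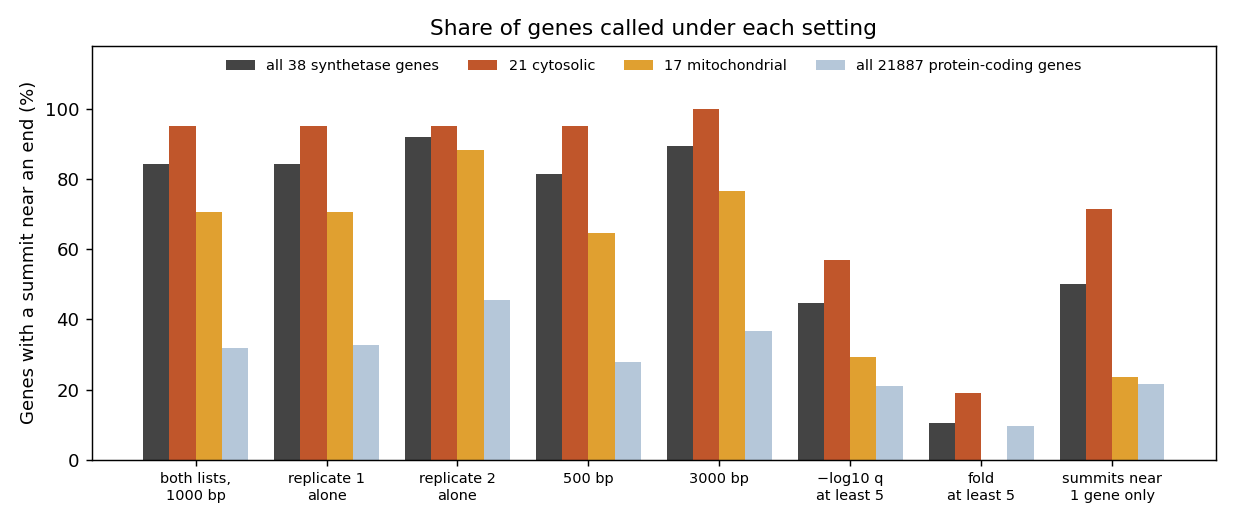
Share of genes with a summit near an end (vertical axis, percent) under 8 settings of the call, for all 38 synthetase genes, the 21 cytosolic ones, the 17 mitochondrial ones and all 21887 protein-coding genes. In the setting used throughout, 84.2% of members and 31.9% of all genes were called, and with a fold enrichment of at least 5 the shares were 10.5% and 9.52%.

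The cytosolic enzymes were called almost without exception. Of the 21 cytosolic genes 20 (95.2%) were called, Eprs being the exception, and of the 17 mitochondrial genes 12 (70.6%) were called, against 31.9% of all genes in both cases. The difference between the compartments was not tested. In replicate 2 alone the shares were 95.2% and 88.2%. Of the 8 synthetases of the multisynthetase complex 7 were called (Dars, Iars, Kars, Lars, Mars1, Qars and Rars). By catalytic fold, 16 of 18 genes of class I and 16 of 19 of class II were called, and Eprs, whose protein joins an enzyme of each class, was not. For 17 amino acids both compartments have a gene of their own. Both were called for 11 of these, and the cytosolic gene alone for 4 (alanine, threonine, tryptophan and tyrosine). The mitochondrial gene alone was called for glutamate, and neither for proline. These counts hold for the gene ends, since Eprs and Wars2 were called when RefSeq starts were used instead.

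The enrichment at these peaks was moderate. Fold enrichment is the authors' ratio of ChIP signal to the caller's background at the summit, and since the lists were made separately it was ranked within each list, where 100 is the strongest peak. In replicate 1 the strongest gene-end peak of the 32 called members had a median percentile of 37.1, against 58.9 for all 6981 called genes. In replicate 2 the medians were 80.9 for called members and 85.4 for all called genes. In replicate 1, 9 of the 32 lay under the 10th percentile, against 9.71% of all called genes. Taking the lower of a gene's percentiles in the lists, 4 members (12.5%) reached 75, against 28.9% of all called genes. Those 4 were Dars, Gars, Vars and Iars, all cytosolic. In 29 of 32 called members (90.6%) the percentile was higher in replicate 2, against 79.5% of all called genes, and the exceptions were Farsb, Gars and Iars.

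**Figure D2:**
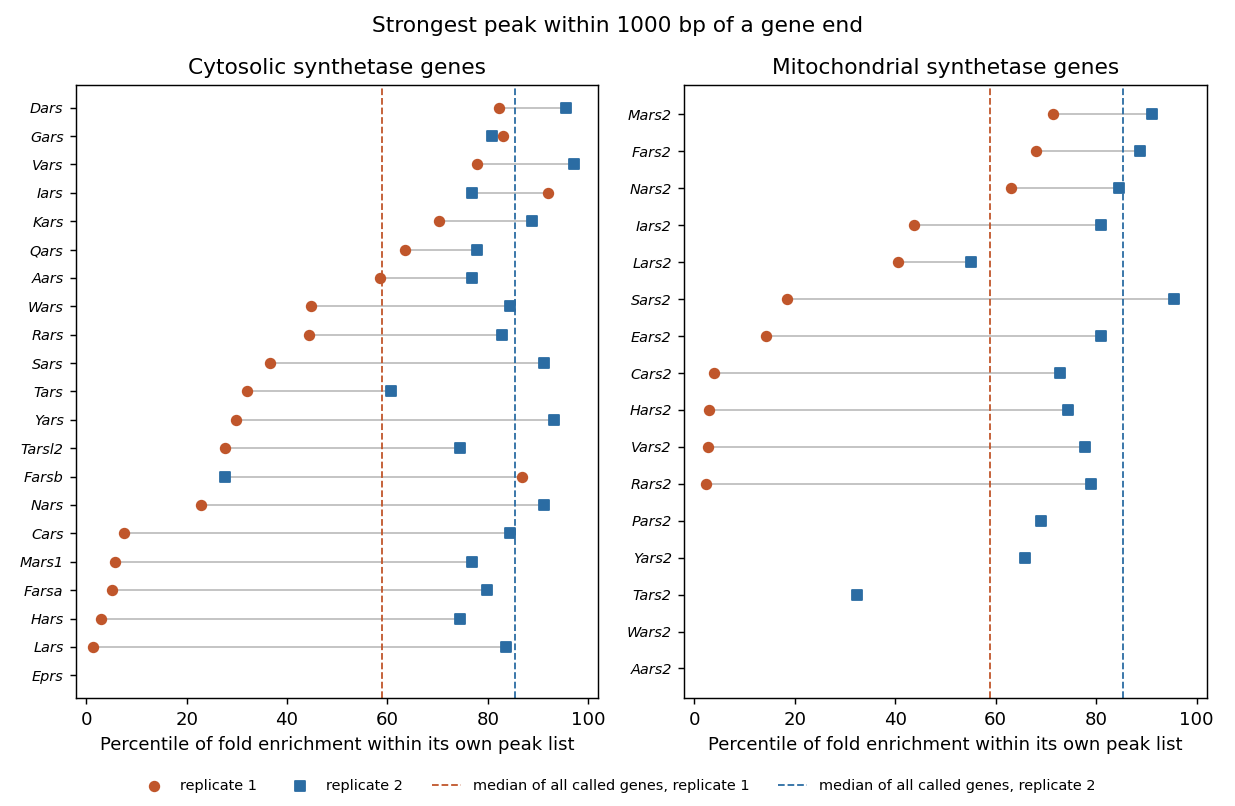
Percentile of fold enrichment, within its own list, of the strongest peak within 1000 bp of a gene end (horizontal axis) for cytosolic genes (left) and mitochondrial genes (right), with circles for replicate 1, squares for replicate 2 and dashed lines at the medians of all called genes. Replicate 1 values spread from 1.26 to 91.9, while in replicate 2 all the called members shown except Farsb lie at or above the 50th percentile, and a gene with no circle or square had no summit near its ends.

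Ranked by the lower of its percentiles in the lists, the first of the cytosolic genes was Dars, the aspartyl-tRNA synthetase gene of the multisynthetase complex, at 128363707 to 128417416 on chromosome 1. Its peaks ran from 128416693 to 128417398 in replicate 1 (fold enrichment 5.31, −log10 q 9.10) and from 128416569 to 128417829 in replicate 2 (10.4 and 26.1). The summits lay 239 and 109 bp inside the RefSeq start, and the fold enrichments were at percentiles 82.3 and 95.6 of their lists. Dars also held a pair of peaks deep in the gene in both replicates. The summits of one were 5309 and 5265 bp from the lower-coordinate end (fold enrichment 4.54 and 4.52), and those of the other 22914 and 22941 bp from it (3.38 and 5.85).

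Gars encodes glycyl-tRNA synthetase for both compartments and lies at 55038001 to 55079504 on chromosome 6. Its peaks had a fold enrichment of 5.36 for replicate 1 and 7.17 for replicate 2 (−log10 q 9.86 and 14.0), with summits 93 bp before and 37 bp after its start. Iars, for isoleucyl-tRNA synthetase, at 49682130 to 49734267 on chromosome 13, had 6.14 and 6.64 (−log10 q 9.61 and 12.1). Its summits were 18 and 56 bp after the start, and its replicate 1 percentile of 91.9 was the highest of any member at a gene end. Unlike most members, neither gene ranked higher in replicate 2.

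Vars, the valyl-tRNA synthetase gene at 35000907 to 35016329 on chromosome 17, had 5.06 and 11.2 (−log10 q 8.27 and 29.4), and its replicate 2 percentile of 97.1 was the highest of any member at a gene end. Its summits were 184 and 15 bp from the lower-coordinate end, which the gene D17H6S56E-5 adjoins. Kars, which supplies lysyl-tRNA synthetase to cytosol and mitochondria, at 111993439 to 112011354 on chromosome 8, had 4.71 and 8.50 (−log10 q 6.12 and 18.8). Its summits, 109 bp before and 52 bp after the start, were also near Terf2ip, a telomere protein gene whose start lies 5 bp away on the opposite strand. Qars, for glutaminyl-tRNA synthetase, at 108508005 to 108515941 on chromosome 9, had 4.48 and 6.73 (−log10 q 7.33 and 12.7), with summits 36 bp after and 185 bp before the start.

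Aars, for alanyl-tRNA synthetase, spans 111027778 to 111055569 on chromosome 8 in the gene table, and it showed peaks in 3 places in both replicates. At the lower-coordinate bound the fold enrichment was 3.06 in replicate 1 and 6.64 in replicate 2. Beyond the higher-coordinate bound, 766 and 706 bp outside the gene, it was 4.28 and 6.64. This second place was at the start of Exosc6, an RNA exosome gene on the same strand, with 769 bp between it and Aars. The RefSeq start, at 111033842, lies inside these bounds, and peaks there had 3.34 and 8.77, with summits 206 and 16 bp before it. The call of Aars by gene bounds thus rested on other peaks than those at its RefSeq start. The strongest gene-end peak lay at the higher bound in replicate 1, and in replicate 2 the peaks at the bounds were equal in strength.

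The other 13 called cytosolic genes were Cars, Farsa, Farsb, Hars, Lars, Mars1, Nars, Rars, Sars, Tars, Tarsl2, Wars and Yars. Their fold enrichments ran from 2.49 (Lars) to 5.67 (Farsb) in replicate 1, and from 3.85 (Farsb) to 9.57 (Yars) in replicate 2. Farsb, which encodes the beta subunit of phenylalanyl-tRNA synthetase, stood apart from the rest. It was at percentile 86.8 in replicate 1 and 27.6 in replicate 2, while Farsa, the gene of the alpha subunit, was at 5.10 and 79.8. Lars, Hars, Farsa, Mars1 and Cars were under the 10th percentile in replicate 1, although all 5 were between 74.4 and 84.5 in replicate 2.

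Among mitochondrial genes Mars2, for methionyl-tRNA synthetase, came first by the lower percentile. It lies at 55237177 to 55240058 on chromosome 1, and its peaks had a fold enrichment of 4.78 and 9.03 (−log10 q 9.45 and 20.9) with summits 11 bp before and 81 bp after the start. A weaker peak within the other end of this short gene was also seen in both replicates (4.26 and 3.72). Fars2, for mitochondrial phenylalanyl-tRNA synthetase, at 36117428 to 36537595 on chromosome 13, had 4.60 and 8.50 (−log10 q 7.89 and 18.8). Its summits, 99 bp before and 104 bp after the start, were shared with Lyrm4, a gene of iron-sulphur cluster assembly on the opposite strand. Nars2, for asparaginyl-tRNA synthetase, at 96950839 to 97064758 on chromosome 7, had 4.47 and 7.71 (−log10 q 8.13 and 15.9). Its summits were 726 and 839 bp from the gene bound but 38 and 151 bp after the RefSeq start, and with a 500 bp window Nars2 was not called. That window left 31 members (81.6%), against 27.9% of all genes, and a 3000 bp window gave 34 (89.5%), against 36.8% of all genes.

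Other called mitochondrial genes were Cars2, Ears2, Hars2, Iars2, Lars2, Rars2, Sars2 and Vars2. Their fold enrichments ran from 2.60 (Rars2) to 3.91 (Iars2) in replicate 1 and from 4.86 (Lars2) to 10.4 (Sars2) in replicate 2. Rars2, Vars2, Hars2 and Cars2 were under the 10th percentile in replicate 1. Sars2 was at percentile 18.4 in replicate 1 and at 95.6 in replicate 2.

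Of the 6 members that were not called, 5 were mitochondrial. Pars2 (prolyl-tRNA synthetase, chromosome 4, 106651069 to 106655282), Yars2 (tyrosyl, chromosome 16, 16302965 to 16309640) and Tars2 (threonyl, chromosome 3, 95739974 to 95756365) had a gene-end summit in replicate 2 alone. The Pars2 peak had a fold enrichment of 5.85 and a −log10 q of 9.49, 65 bp from the lower-coordinate end. The Yars2 peak had a fold enrichment of 5.58 and a −log10 q of 8.65, 148 bp after the start. For Tars2 the scored summit was weak (fold enrichment 3.99, −log10 q 4.06) and 949 bp from the lower-coordinate bound, the far end from its start. A second Tars2 peak in replicate 2, with a fold enrichment of 5.48 and a −log10 q of 11.3, lay 94 bp after the RefSeq start and 1482 bp from the higher-coordinate bound. Replicate 1 had no peak at any of these 3 genes.

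Eprs, Wars2 and Aars2 had no summit within 1000 bp of their bounds in either list, but their RefSeq starts lie further inside. Eprs encodes the joined glutamyl- and prolyl-tRNA synthetase of the multisynthetase complex and spans 185361417 to 185428360 on chromosome 1. Its RefSeq start is at 185363044, and summits lay 291 bp before it in replicate 1 (fold enrichment 3.68, −log10 q 4.39) and 162 bp before it in replicate 2 (11.4 and 31.1). These summits were 1336 and 1465 bp inside the lower-coordinate bound. Wars2, for mitochondrial tryptophanyl-tRNA synthetase, at 99140107 to 99221230 on chromosome 3, likewise had summits 212 and 259 bp after its RefSeq start (fold enrichment 3.43 and 7.44), which were 1195 and 1242 bp inside the bound. For Aars2, the mitochondrial alanyl-tRNA synthetase gene at 45503515 to 45520843 on chromosome 17, replicate 2 had a summit 77 bp after the nearer of its listed RefSeq starts (fold enrichment 5.21, −log10 q 8.33), and the nearest summit of replicate 1 was 48691 bp away.

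Position was therefore measured against RefSeq starts, which were at hand for 28 members. Of these, 25 (89.3%) had a summit within 1000 bp of the start in both replicates, against 34.5% of 17492 protein-coding genes with a start. The 25 included all 14 cytosolic genes and 11 of 14 mitochondrial genes. In replicate 2 all 28 had one, against 48.1% of those genes, and in replicate 1 there were 25, against 35.1%, without Aars2, Tars2 and Yars2. Within 250 bp there were 22 in both replicates (78.6%), against 24.8% of those genes. The median distance of the nearest summit from the start was 68 bp in replicate 1 and 87.5 bp in replicate 2, and the largest in replicate 2 was 259 bp (Wars2). For the 23 called members with a known strand, the end of the strongest summit was set against that of the start. It was the same end in 22 in replicate 1, Aars being the exception, and in 23 in replicate 2. In replicate 2 Aars was counted by the lower-coordinate one of its equal peaks at the bounds.

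**Figure D3:**
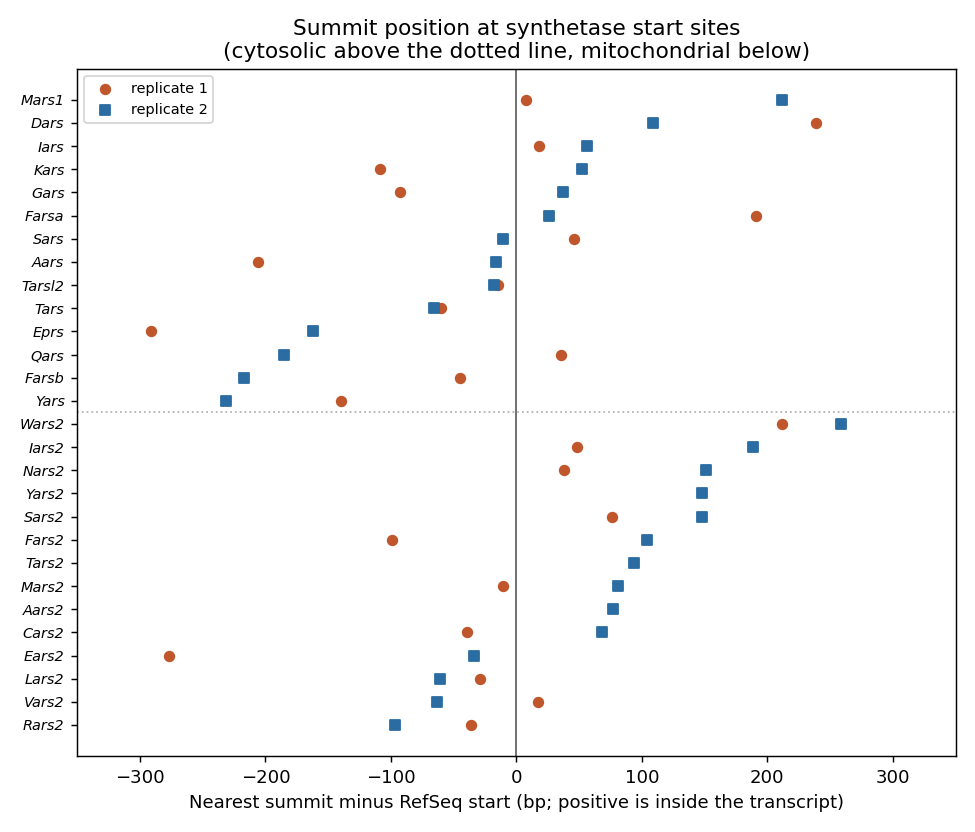
Distance of the nearest summit from the RefSeq start (horizontal axis, bp, positive towards the inside of the transcript) for the 28 members with a start, with circles for replicate 1 and squares for replicate 2. All 28 replicate 2 summits lie within 259 bp of the start, and Aars2, Tars2 and Yars2 have no circle because replicate 1 had no summit within 1000 bp of their starts.

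The replicates placed their summits close together. In 31 of 32 called members the strongest peaks of the lists overlapped. At Aars, the exception, the replicate 2 peaks at its bounds were equal in strength and the lower-coordinate one was taken. The other one, from 111056020 to 111056827, did overlap the strongest replicate 1 peak. Counting any peaks at the same end, all 32 called members and 6927 of all 6981 called genes had an overlap. Overlap was thus the rule for called genes of any kind. The median gap between the strongest summits of the lists was 128 bp, against 106 bp for all called genes. The gap was 3 bp at Tarsl2, a second threonyl-tRNA synthetase gene, 6 bp at Tars and 11 bp at Nars. The peaks had a median width of 536 bp in replicate 1 and 1040 bp in replicate 2, against 661 and 1250 bp for all called genes.

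Many of the peaks stood between neighbouring genes, so a peak cannot be assigned to the synthetase alone. In both replicates 13 of 32 called members shared the summit with another protein-coding gene, 5 of 20 cytosolic and 8 of 12 mitochondrial. In replicate 1 the share was 43.8% of called members, against 32.3% of all called genes, and in replicate 2 it was 40.6%, against 32.3%. Hars and Hars2, the histidyl-tRNA synthetase genes of the compartments, overlap by 4 bp on chromosome 18 and shared a single peak in each list. It was weak in replicate 1 (fold enrichment 2.65, percentile 2.97) but not in replicate 2 (6.38, percentile 74.4). The 32 calls thus rested on 31 peaks in replicate 1. Rars2 started 15 bp from Orc3, a gene of the origin recognition complex, on the opposite strand. Sars2 started 147 bp from Mrps12, a mitochondrial ribosomal protein gene, also on the opposite strand. Vars2 shared its summit with the transcription factor IIH gene Gtf2h4, which is on the same strand and starts 6151 bp away. Ears2 shared its summit with Ubfd1, Iars2 with Bpnt1 (starts 2758 bp apart), Wars with Wdr25 and Yars with S100pbp. Without summits near several genes 19 of the 38 members were called, against 21.7% of all genes, with 15 of 21 cytosolic and 4 of 17 mitochondrial. Genes that adjoin another can seldom be called under that setting.

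Away from starts and ends, few peaks lay inside the members. Replicate 1 had 5 such summits and replicate 2 had 9, and 4 of each overlapped a peak of the other list. These 4 were the pair inside Dars, one inside Lars2 (mitochondrial leucyl-tRNA synthetase), 83563 and 83668 bp from its lower-coordinate end, and one inside Fars2. The Lars2 peak had a fold enrichment of 5.26 in replicate 1, higher than the 3.82 at its start, and 3.45 in replicate 2, lower than the 4.86 there. The Fars2 peak (4.26 and 3.49) was 14775 and 14785 bp from the lower-coordinate end.

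Since the summits lay at starts, the RefSeq promoter sequences (assembly GRCm38.p6) of members were read, each from 250 bases before to 50 bases after the start. There were 29 such windows for 28 members. They were searched on both strands for 6 motifs. These were TGATGNAA, the core of the C/EBP-ATF response element through which ATF4 acts, the E-box CACGTG of MYC and related factors, the palindromic motif of NRF1 (a regulator of nuclear genes for mitochondria), CCGGAAG of the ETS family, CCAAT of NFY and TATAAA of the TATA box. A match is a description of the sequence and not a bound site, and no matches in member windows overlapped. The windows below are those of the 3 cytosolic and 2 mitochondrial genes that ranked highest by the lower percentile among called members with a window, followed by Aars2, the first uncalled member in the alphabet. They run 5′ to 3′ on the strand of the gene, in lower case with matches in capitals.

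Dars, chr1:128417367-128417666, minus strand: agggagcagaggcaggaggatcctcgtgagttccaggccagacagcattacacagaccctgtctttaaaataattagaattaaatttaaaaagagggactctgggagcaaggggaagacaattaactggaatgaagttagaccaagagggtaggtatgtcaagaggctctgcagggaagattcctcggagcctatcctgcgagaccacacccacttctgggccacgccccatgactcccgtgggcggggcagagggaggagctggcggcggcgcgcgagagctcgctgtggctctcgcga
Gars, chr6:55037751-55038050, plus strand: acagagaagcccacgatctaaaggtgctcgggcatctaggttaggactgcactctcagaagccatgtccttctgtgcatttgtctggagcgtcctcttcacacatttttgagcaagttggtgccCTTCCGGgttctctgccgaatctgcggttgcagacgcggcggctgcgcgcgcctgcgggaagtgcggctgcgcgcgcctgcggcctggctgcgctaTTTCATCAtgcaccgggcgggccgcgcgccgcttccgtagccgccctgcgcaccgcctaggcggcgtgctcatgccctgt
Iars, chr13:49681880-49682179, plus strand: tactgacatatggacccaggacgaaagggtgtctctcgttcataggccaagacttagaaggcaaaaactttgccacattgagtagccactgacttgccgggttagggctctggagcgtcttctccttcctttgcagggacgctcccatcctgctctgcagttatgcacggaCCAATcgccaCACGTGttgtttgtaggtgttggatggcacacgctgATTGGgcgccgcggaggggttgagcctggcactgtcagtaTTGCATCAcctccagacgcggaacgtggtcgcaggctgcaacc
Mars2, chr1:55236927-55237226, plus strand: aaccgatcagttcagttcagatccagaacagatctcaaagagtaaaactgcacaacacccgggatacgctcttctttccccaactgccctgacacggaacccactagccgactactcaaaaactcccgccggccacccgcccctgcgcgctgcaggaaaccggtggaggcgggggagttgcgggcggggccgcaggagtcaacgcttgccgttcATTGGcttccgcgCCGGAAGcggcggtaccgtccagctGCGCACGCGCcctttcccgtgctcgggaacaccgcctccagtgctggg
Fars2, chr13:36117393-36117692, plus strand: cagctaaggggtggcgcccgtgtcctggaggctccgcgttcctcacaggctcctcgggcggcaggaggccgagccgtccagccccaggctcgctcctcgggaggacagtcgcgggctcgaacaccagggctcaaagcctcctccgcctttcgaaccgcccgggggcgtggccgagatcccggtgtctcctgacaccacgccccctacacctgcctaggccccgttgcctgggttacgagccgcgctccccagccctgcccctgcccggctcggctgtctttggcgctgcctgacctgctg
Aars2, chr17:45506582-45506881, plus strand: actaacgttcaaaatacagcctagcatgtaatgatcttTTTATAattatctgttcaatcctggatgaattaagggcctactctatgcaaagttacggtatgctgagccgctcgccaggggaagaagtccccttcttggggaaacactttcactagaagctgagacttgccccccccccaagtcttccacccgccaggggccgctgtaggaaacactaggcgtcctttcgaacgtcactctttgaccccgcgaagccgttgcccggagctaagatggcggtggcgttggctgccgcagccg

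Iars held an E-box from 69 bases before the start between a pair of CCAAT matches, and an ATF core just after the start. Gars held the ETS match and an ATF core from 30 bases before the start. Mars2 held the ETS, CCAAT and NRF1 matches close to the start. Dars and Fars2 had none of the 6, and Aars2 had the TATA match only.

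The ATF core was found in 5 of 14 cytosolic windows and in 0 of 15 mitochondrial ones. It was in 17.2% of member windows, against 2.10% of windows of all called genes and 3.60% of all 21263 protein-coding windows. The genes were Aars, Gars, Iars, Tars and Yars. The stretches around the match nearest to the start of each gene, with 15 bases on each side and the match in capitals, show that it lay from 30 bases before to 16 bases after the start, counted with the start as 0, and on the strand opposite to the gene except in Yars.

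Aars, chr8:111033836-111033873, plus strand: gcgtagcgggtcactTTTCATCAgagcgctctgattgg
Gars, chr6:55037956-55037993, plus strand: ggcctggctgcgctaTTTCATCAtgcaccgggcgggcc
Iars, chr13:49682122-49682159, plus strand: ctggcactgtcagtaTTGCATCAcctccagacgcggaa
Tars, chr15:11399651-11399688, minus strand: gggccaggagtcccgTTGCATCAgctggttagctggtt
Yars, chr4:129189891-129189928, plus strand: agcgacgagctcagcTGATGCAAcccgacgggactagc

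At Iars the replicate 1 summit (49682148) fell within the printed stretch and that of replicate 2 (49682186) lay beyond it. At the other 4 genes the summits nearest to the start lay outside the printed stretch in both replicates. The peaks themselves are wider, and those nearest to the start covered the printed stretch at Aars, Gars, Iars and Tars in both replicates. At Yars the replicate 2 peak covered it, and the replicate 1 peak ended before it, at 129189875. The 5 genes did not share a rank. The percentiles of the peaks nearest to their starts ran from 20.8 (Aars) to 91.9 (Iars) in replicate 1. In replicate 2 they ran from 60.7 (Tars) to 93.2 (Yars).

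The other motifs were less unevenly spread. The E-box was in 17.2% of member windows (4 cytosolic, 1 mitochondrial), against 11.1% of windows of called genes and 7.84% of all windows. The NRF1 motif was in 17.2% (3 cytosolic, 2 mitochondrial), against 12.8% and 6.38%, and the ETS motif in 31.0% (5 and 4), against 22.1% and 11.6%. CCAAT was in 44.8%, against 39.5% and 38.2%, and TATAAA in 13.8%, against 6.45% and 12.6%. Aars2 had more than 1 window, and its single TATAAA site was counted in each of them. None of the 6 motifs was found in 9 of the 29 windows. The median GC content was 57.7% for member windows, against 61.7% for windows of called genes and 56.3% for all windows.

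**Figure D4:**
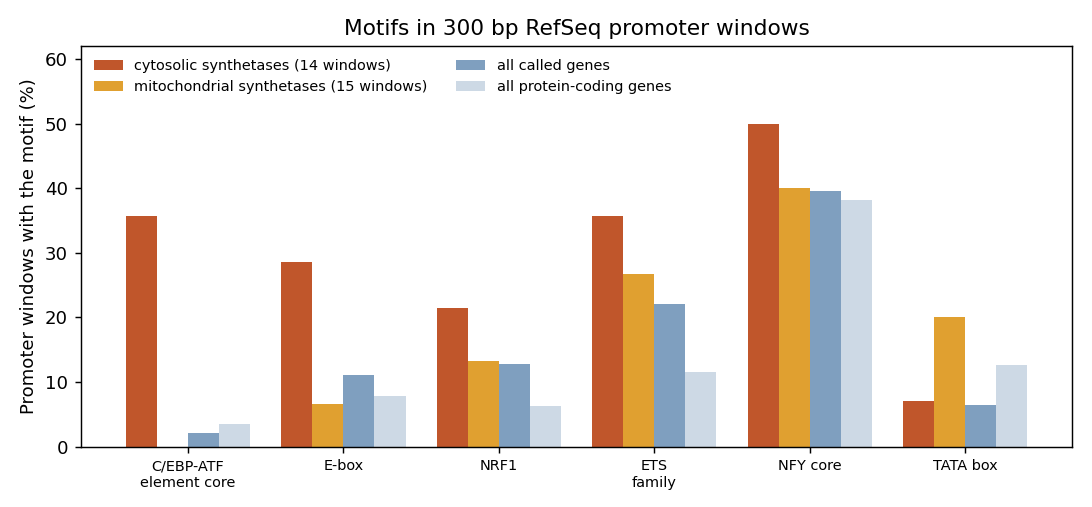
Share of 300 bp RefSeq promoter windows (vertical axis, percent) that hold each of 6 motifs on either strand, for the 14 windows of cytosolic members, the 15 of mitochondrial members, all called genes and all protein-coding genes. The C/EBP-ATF core was found in 5 of the cytosolic windows and in 0 of the mitochondrial ones, against 2.10% of windows of called genes and 3.60% of all windows.

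Genes that act beside the synthetases were examined next. Of 20 accessory genes of transfer RNA charging 17 (85.0%) were called, against 31.9% of all genes. They included the 3 scaffold genes of the multisynthetase complex, Aimp1 (fold enrichment 2.83 and 8.80), Aimp2 (4.16 and 9.03) and Eef1e1 (3.27 and 7.71). Gatb, Gatc and Qrsl1, for the amidotransferase of the indirect mitochondrial glutaminyl route, were also called. By the lower of their percentiles the first 3 were Ptrh2, a peptidyl-tRNA hydrolase gene (5.06 and 7.97), Mtfmt, the mitochondrial methionyl-tRNA formyltransferase gene (4.64 and 5.68), and Dtd2, for a proofreading deacylase (4.82 and 5.58). In both replicates Aimp1 shared the summit with Tbck, Aimp2 with Pms2, Gatc with Triap1, Qrsl1 with Rtn4ip1 and Ptrh2 with Vmp1. Without summits near several genes 12 of the 20 accessory genes were called, against 21.7% of all genes. Sepsecs and Dtd1 had a summit in replicate 2 alone (7.17 and 7.71).

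Of 22 genes of the response to amino acid shortage 11 were called, against 31.9% of all genes. In replicate 2 taken alone 17 had a summit, against 45.5% of all genes. The first 3 by the lower percentile were Ddit3 (6.41 and 13.0), which encodes the stress factor CHOP and shares its peak with Mbd6, Atf4 (5.85 and 13.3), and Mthfd2, for a mitochondrial folate enzyme (4.82 and 9.30, shared with Mob1a). The Mthfd2 peaks ranked here lay at its higher-coordinate bound, away from its RefSeq start. Separate peaks there (5.14 and 7.44) had summits 234 and 415 bp after the start. The sensor gene Eif2ak4 had 4.09 and 7.17. Its partner Gcn1, the pseudokinase gene Trib3, the asparagine synthetase gene Asns, Psat1, Pycr1 and Chac1 had a summit in replicate 2 alone, with fold enrichments from 4.46 to 6.59. Impact, Phgdh, Cth, Slc7a11 and Vldlr had none within reach of their bounds. For Slc7a11, the cystine transporter gene, summits lay 70 and 239 bp before the RefSeq start in the replicates, and for Phgdh, of serine synthesis, the replicate 2 summit was 1001 bp after the start.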

How the data were processed

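Flag ChIP-seq peak lists of 2 libraries were analysed. The submitters' processing notes name MACS2 and Bowtie2, beside cutadapt, Trimmomatic, FastQC and ChIPseeker, with the mm10 build and without versions. How peak calling was controlled and cut off is not given in the sources used here. For each peak the authors deposited a fold enrichment (a linear ratio at the summit), −log10 p and −log10 q values, and a score, which is the −log10 q times 10 without its decimals. The deposited −log10 q values began at 1.31 (replicate 1) and 1.30 (replicate 2). Summit and gene positions are counted from 1. Genes and starts came from RefSeq tables of GRCm38.p6, the assembly of mm10. Percentiles rank fold enrichment within a list, ties averaged. Calls and motif searches were tested on simulated data. Calculations used Python 3.11.15, numpy 2.4.6 and pandas 2.3.3. Members and gene lists were chosen with earlier results of these data known. Members are named with few exceptions, with full values for the 10 called ones with the highest lower percentile and for those not called. Of the accessory and shortage lists, the 3 highest-ranked and the uncalled genes were named by rule, and the scaffold, amidotransferase and Eif2ak4 genes after their values were seen. The short stretches around the ATF core were chosen after the matches were seen. Alternatives changed the cutoff, window, end, list length and replicates. Replicates may be technical. No tests were run. Some genes and sequences are not reported here.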

Additional observations from a re-analysis of the deposited data

How the results depend on the processing

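The main count of 32 called members ranged from 4 to 35 over 10 alternatives. When both peaks had to reach a −log10 q of 5, 17 members were called (12 cytosolic, 5 mitochondrial), as were 8 of 20 accessory genes, against 21.1% of all genes. With a fold enrichment of at least 5 there were 4 members (4 cytosolic, 0 mitochondrial, 2 of the multisynthetase complex), 1 accessory gene and 2 genes of the response to amino acid shortage, against 9.52% of all genes. Leaving out summits near several genes gave 19 members and 4 mitochondrial ones, and the share of all genes became 21.7%. The other settings that kept both lists changed the count little. A 500 bp window gave 31 members, against 27.9% of all genes, and 3000 bp gave 34, against 36.8%. Overlapping peaks at the same end gave 32, against 31.6%, and replicate 2 shortened to 12702 peaks gave 31, against 30%. At RefSeq starts 25 of 28 were called, against 34.5% of genes with a start. The 3000 bp window and RefSeq starts added Eprs and Wars2. Only Dars, Gars and Iars were called under all 10 alternatives.

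With a single list in use, the count was 32 to 35 for all members, 20 for cytosolic, 12 to 15 for mitochondrial, 7 for the multisynthetase complex, 17 to 20 for accessory genes and 11 to 17 for the shortage genes, the higher value being that of replicate 2. The share of all genes was 32.6 to 45.5%. No paired analysis was possible because no list from the input libraries was used here and no result came from a test. The cause of these shifts was not tested. Peak lists without counts leave the depth unknown, so a member without a peak may have fallen below the limit of detection.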
